A study of Caenorhabditis elegans with 4 samples.

Results

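The broad DVE-1 binding regions of late Caenorhabditis elegans embryos are described here: the peaks of 800 bp or more in the combined peak list of a chromatin immunoprecipitation sequencing (ChIP-seq) experiment. They were chosen by width alone, and 315 of the 4971 peaks of that list met the rule. The worms were hermaphrodites of strain OP398, collected as late embryos from cultures at 20 °C. All samples, inputs included, carry the mutation unc-119(ed3) on III, and the transgene wgIs398, which holds both the rescuing unc-119(+) and dve-1::TY1EGFPFLAG, a DVE-1 with an EGFP and FLAG tag at its C terminus. The transgene was introduced by bombardment in addition to the worm's own dve-1 gene; neither its copy number nor its insertion site is stated in the labels. Chromatin crosslinked with 2% formaldehyde was precipitated with an antibody against GFP in 2 ChIP samples, and 2 input samples carry matching replicate numbers. Values of the input samples were not analysed here, and no label says whether the replicates were separate cultures. DVE-1 was not compared with any other protein, genotype or stage.

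DVE-1 is a homeodomain protein related to the vertebrate SATB chromatin organisers, and it is best known from the response to misfolded proteins in mitochondria, in which it gathers in the nucleus and acts with the ubiquitin-like protein UBL-5. A factor bound at a single site usually gives a narrow ChIP-seq peak, little wider than the sonicated fragments. A wide peak can hold several neighbouring sites or a continuous stretch of enrichment, and a peak caller draws it as 1 interval wherever enrichment is not interrupted for long enough. The peaks were called with PeakSeq, and the authors give each peak its 2 edges and a q-value, but no read count, height or summit. Peaks are ranked below by q-value, with rank 1 for the smallest. Positions are on WormBase build WS180; no genome or annotation of that build was used, so genes and sequences at the peaks are not stated. The lists held 1709 peaks in replicate 1 and 2109 in replicate 2, and the sequencing depth is unknown.

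The width that chose the members comes from the same peak call as the q-value and from the same libraries as the replicate lists. The values below are therefore descriptions, and no test of broad against narrower peaks was made. Intervals are 95% Clopper-Pearson intervals and cover counting error only. The broad peaks made up 6.34% of the combined peaks and 20.5% of the bases under them, 401413 of 1961854 bp. Their median width was 1031 bp (quartiles 883 and 1353.5), against 307 bp (221 and 426) for the 4656 narrower peaks. Most were only moderately wide: 146 measured under 1000 bp and 110 between 1000 and 1499 bp, while 25 measured 1500 to 1999 bp and 34 measured 2000 bp or more. The 800 bp limit cuts a continuous distribution. Within 5 bp of it, 6 peaks lay inside and 6 outside; the ranks ran from 127 to 3228 among the former and from 106 to 3283 among the latter, and 3 of the former and 2 of the latter were found in both replicates.

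The broad peaks stood high in the combined list. Their median rank was 437 (quartiles 151.5 and 1072.5), against 2618 (1419.75 and 3802) for the narrower peaks, and the median −log10 q was 17.6 against 5.80. They supplied 53 of the 100 best peaks. Their share was 38.0% among ranks 101 to 250 and 22.8% from there to rank 500, then 12.4% up to rank 1000 and 4.9% up to rank 2000. Wider members had better ranks, from a median of 725 at 800 to 999 bp to 406.5 at 1000 to 1499 bp, 256 at 1500 to 1999 bp and 87 at 2000 bp or more. The relation was loose. At 844 bp the peak at II 2525359–2526202 was barely wide enough to be a member and yet held rank 3, whereas 37 broad peaks ranked beyond 2000, the last at 4349. A pair of members above 2000 bp in width, at V 18704987–18707308 and X 12691338–12693611, chosen after their values were seen, ranked only 3781 and 3611 and had no peak in either replicate.

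**Figure D1:**
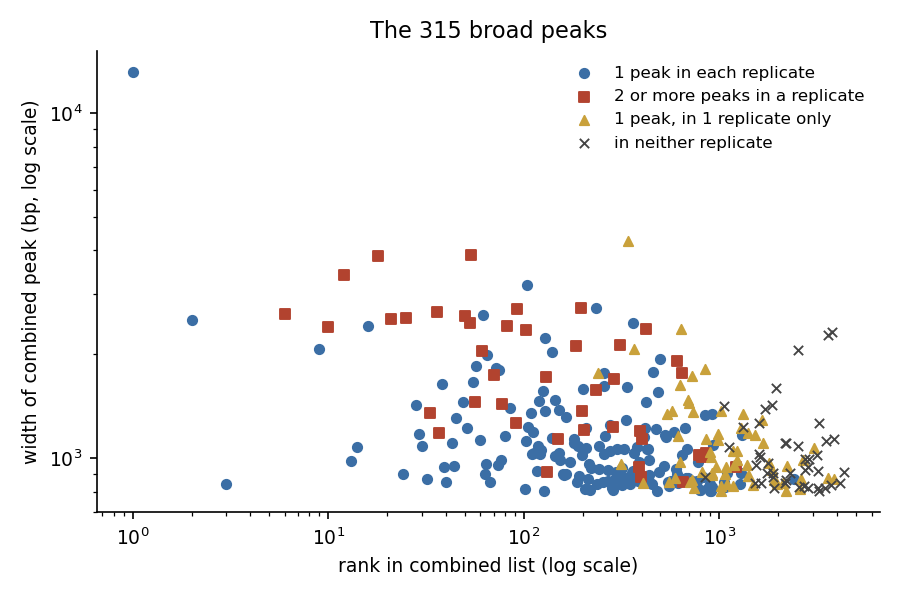
Width of each of the 315 broad combined peaks (y axis, bp, log scale) against its rank by q-value in the combined list (x axis, log scale); 1 point is 1 peak and the marker shows what the replicate lists hold there. Peaks divided in a replicate lie toward the upper left, and the 45 peaks found in neither replicate all rank 845 or beyond.

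The 10 best-ranked broad peaks were all present in both replicates. The foremost, X 424812–437987, was 13176 bp wide and had q-values of 1.76e-182 in the combined list, 1.58e-36 in replicate 1 and 2.35e-66 in replicate 2. A single replicate peak covered 99.5% of it in replicate 1 and 99.6% in replicate 2, so both replicates drew the block almost to its full length. Both lists come from worms with the same transgene, and input values were not analysed. Whether the input shares the signal of this block was therefore not tested. The peak at IV 14032371–14034889, 2519 bp wide and at rank 2 in all 3 lists, was also 1 peak in each replicate, with 79.5% of it covered in replicate 1 and 87.4% in replicate 2. II 2525359–2526202 (rank 3) was likewise single, with 75.9% and 82.5% covered. Other members of the 10 were single and nearly filled in both replicates, such as X 8035984–8036962 (rank 13), with 95.8% and 92.2% covered, and X 2996436–2997515 (rank 14), with 83.1% and 96.5%. I 1835069–1837480 (rank 16) had 84.1% and 86.6% covered. I 7474093–7476159 (rank 9) was filled further in replicate 1, at 81.5%, than in replicate 2, at 61.4%. The remaining 3 of the 10, at ranks 6, 10 and 12, were divided in both replicates and are described below.

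The widest members differed more between replicates. The second-widest, X 438418–442662, lies next to the block on X; replicate 1 covered 96.1% of its 4245 bp and replicate 2 listed no peak there. IV 14619497–14622676 was 3180 bp wide with 34.8% covered in replicate 1 and 95.3% in replicate 2, and V 19049086–19051786 was 2701 bp wide with 23.2% and 99.4% covered. V 6098606–6101324 had 46.3% covered in replicate 1 and 21.3% in replicate 2. I 7080806–7083521 was thinly covered in both, at 14.1% and 43.9% of its 2716 bp. Of the 10 widest, 4 had at least 90% of their length covered in 1 replicate and under 55% in the other.

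Over all members, 202 of 315 (64.1%, 58.6 to 69.4) overlapped a peak in both replicates by at least 1 bp, against 22.7% (21.5 to 24.0) of the narrower peaks. Replicate 2 held far more of the rest than replicate 1: 59 members were in replicate 2 only and 9 in replicate 1 only. The remaining 45 (14.3%, 10.6 to 18.6) were in neither, against 54.0% (52.5 to 55.4) of the narrower peaks. The best-ranked of these 45 were III 1419456–1420340 (rank 845), X 6743446–6744860 (rank 1062), V 2133565–2134645 (rank 1126), I 12575297–12576530 (rank 1327) and III 4504368–4505217 (rank 1516). They measured between 850 and 1415 bp, and none was among the 10 widest members.

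Set against narrower peaks of similar rank, broad peaks were in no rank class more often in both replicates. In ranks 1 to 100 every broad and every narrower peak was in both replicates. The shares were 56 of 57 (98.2%) against all 93 in ranks 101 to 250. They were 52 of 57 (91.2%) against 185 of 193 (95.9%) in ranks 251 to 500. The difference was largest between ranks 501 and 2000. In ranks 501 to 1000, 33 of 62 broad peaks (53.2%) were in both, against 369 of 438 narrower ones (84.2%), and in ranks 1001 to 2000, 7 of 49 (14.3%) against 308 of 951 (32.4%). The shortfall lay mainly in replicate 1. In ranks 501 to 1000 that replicate held 59.7% of the broad (46.4 to 71.9) and 87.2% of the narrower peaks (83.7 to 90.2), while replicate 2 held 91.9% (82.2 to 97.3) and 96.1% (93.9 to 97.7). In ranks 1001 to 2000 the shares were 16.3% (7.32 to 29.7) and 46.8% (43.6 to 50.0) in replicate 1 and 63.3% (48.3 to 76.6) and 68.1% (65.1 to 71.1) in replicate 2. Within ranks 501 to 1000, presence in both replicates was lower in each wider class: it was 94.7% of 38 peaks under 300 bp, 85.9% of 326 at 300 to 599 bp, 71.6% of 74 from 600 bp to under 800 bp, 66.7% of 33 at 800 to 999 bp and 43.5% of 23 at 1000 to 1499 bp. Ranks 1001 to 2000 had the same order, from 36.4% of 264 peaks under 300 bp to 20% of 30 at 800 to 999 bp. At 1000 to 1499 bp it was 5.56% of 18. Ranks 251 to 500 showed no such steady order. All 3 peaks under 300 bp were in both replicates, as were 97.8% of 137 at 300 to 599 bp. The share was 90.6% of 53 peaks from 600 bp to under 800 bp and 92.6% of 27 at 800 to 999 bp. All 18 at 1000 to 1499 bp and all 7 at 1500 to 1999 bp were in both, but only 2 of 5 at 2000 bp or more. The higher overall share of broad peaks in both replicates thus went with their better ranks. Beyond rank 2000 only 37 broad peaks remained, and few peaks of either width were in both replicates. In ranks 2001 to 3000, 1 of 21 broad peaks (4.76%) and 5.21% of narrower ones were in both, and 66.7% and 60.6% were in neither. In ranks 3001 to 4971, 0 of 16 broad peaks and 0.307% of narrower ones were in both, and 81.2% and 89.5% were in neither.

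**Figure D2:**
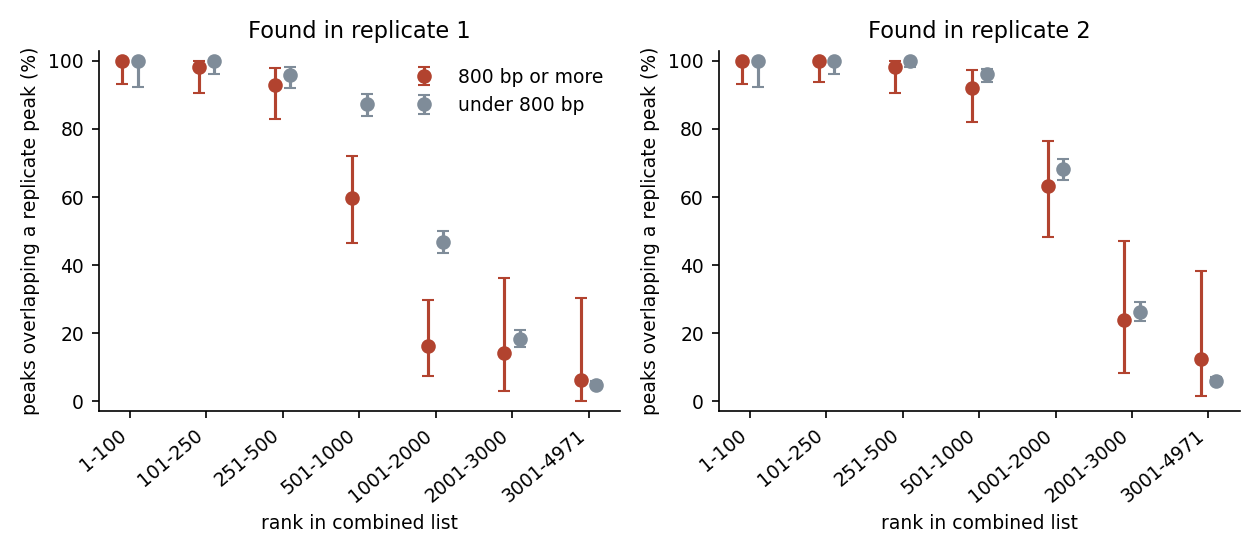
Share of combined peaks (y axis, %) that overlap a peak of replicate 1 (left) or replicate 2 (right) by at least 1 bp, by rank in the combined list (x axis); red points are peaks of 800 bp or more, grey points narrower peaks, and bars are 95% Clopper-Pearson intervals. In ranks 501 to 1000 replicate 1 holds 59.7% of broad and 87.2% of narrower peaks, and replicate 2 holds 91.9% and 96.1%.

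The replicate peaks filled only a part of most broad peaks. Replicate 1 covered a median of 45.3% of a member and replicate 2 a median of 72.0%; over the members found in the replicate the medians were 60.8% and 78.1%, against 79.8% and 87.2% for narrower peaks. Peaks of either replicate together covered a median of 79.8% of a member (quartiles 53.5 and 93.5), and the bases covered in both replicates made up a median of 37.2%. The uncovered bases lay mostly at the ends. Where a member was found, 86.6% of its uncovered bases in replicate 1 and 88.7% in replicate 2 were outside the outermost replicate peak edges, and the remaining 13.4% and 11.3% lay between replicate peaks. A member with 1 replicate peak can have uncovered bases only at its ends. More than 1 peak was present in 28 of 211 members found in replicate 1 and 30 of 261 in replicate 2. For narrower peaks 99.8% and 100% of the uncovered bases were at the ends. Replicate peaks also reached past the edge of the combined peak, in 40 of 211 members found in replicate 1 (19.0%) and 90 of 261 found in replicate 2 (34.5%). Narrower peaks were outreached more often, at 33.9% in replicate 1 and 48.5% in replicate 2.

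The commonest state, that of 163 members (51.7%), was 1 peak in each replicate. In 162 of these the replicate peaks overlapped each other, and over all 163 their midpoints were a median of 87 bp apart. The peak of replicate 2 was the wider in 115 of the 163, with a median of 824 bp against 651 bp in replicate 1. The exception was II 6926064–6927124 (rank 683), named after its values were seen, where replicate 1 had a peak of 598 bp and replicate 2 one of 332 bp, 175 bp apart within the same combined peak.

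Division into 2 or more replicate peaks was seen in 43 members (13.7%, 10.1 to 17.9) and in 1 of the 4656 narrower peaks. Replicate 1 divided 28, replicate 2 divided 30, and 15 were divided in both; 1 member, at II 8440750–8442447, had 3 peaks in replicate 1, and every other division gave 2. Wider peaks have more room for several replicate peaks, and the share divided was higher in each wider class, from 3.42% at 800 to 999 bp to 12.7% at 1000 to 1499 bp, 24% at 1500 to 1999 bp and 52.9% at 2000 bp or more. A member without replicate peaks cannot be divided, and of the 86 beyond rank 1000 only 8 were in both replicates, so division was set against rank only among members in both. Of these, 19 of 53 in the first 100 ranks were divided, 9 of 56 in ranks 101 to 250, 7 of 52 in ranks 251 to 500 and 3 of 33 in ranks 501 to 1000. Their median widths were 1450, 1086, 1033.5 and 879 bp in the same order, so rank and width were not separated. All 15 members divided in both replicates ranked 199 or better.

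Where both replicates divided a broad peak, their breaks mostly overlapped. The breaks, over all divided members, were short, with a median of 288 bp in replicate 1 (207 to 1543) and 263 bp in replicate 2 (205 to 713). The shortest equalled the smallest gap that each list has anywhere, 207 and 205 bp. They lay near the middle of the combined peak, at a median of 48.7% of its length from the left end in replicate 1 and 47.8% in replicate 2. Of the 15 members divided in both, 14 had breaks that overlapped each other by at least 1 bp. Each break lies between replicate peaks of the same member, and some breaks were long, so some overlap follows from position alone. How much was not tested. At X 16929332–16931950 (rank 6) the break was 16930101–16931306 in replicate 1 and 16930503–16930752 in replicate 2. At II 11633755–11636160 (rank 10) the breaks were 11634508–11634814 and 11634571–11634795, and at I 5311060–5313601 (rank 25) 5312188–5312763 and 5312062–5312774. III 833034–836434 (rank 12) had the longest break, 834023–835565 in replicate 1, of which 834126–834573 was also a break in replicate 2. At IV 14609704–14613557 (rank 18) the breaks, 14611958–14612206 and 14612185–14612389, overlapped only at their ends. The exception was V 723851–727727 (rank 54), which replicate 1 broke near the left end and replicate 2 near the right.

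**Figure D3:**
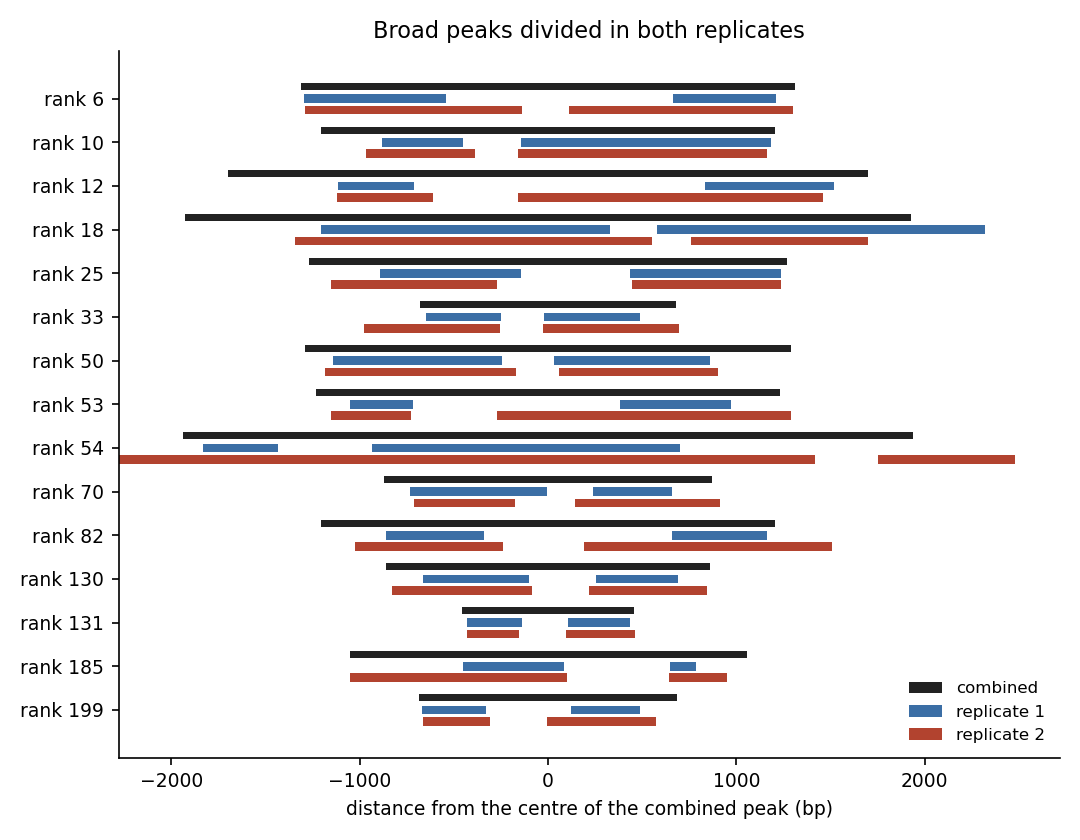
The 15 broad peaks divided in both replicates, 1 row each, labelled by rank in the combined list; black bars are the combined peak, blue bars the peaks of replicate 1 and red bars those of replicate 2, drawn to scale by distance from the centre of the combined peak (x axis, bp). The interruptions of both replicates overlap by at least 1 bp in 14 of the 15 rows, and the row of rank 54 is the exception.

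Breaks of replicate 1 that replicate 2 did not share were mostly closed in replicate 2. In the opposite direction closure was less common. Of the 29 breaks of replicate 1, 14 were shared, 12 lay wholly inside a peak of replicate 2 and 3 were partly covered by one. Of the 30 breaks of replicate 2, 14 were shared, 4 lay wholly inside a peak of replicate 1 and 5 were partly covered, while 3 were uncovered and 4 lay in members with no peak in replicate 1. The better-ranked part of a divided peak had a median rank of 289.5 among the 1709 peaks of replicate 1 and 209 among the 2109 of replicate 2, and the poorest-ranked part had medians of 942.5 and 1056.5, an order that follows from the choice of best and poorest. Their midpoints were a median of 1030 bp apart in replicate 1 and 1145 bp in replicate 2.

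Broad peaks also had closer neighbours than narrower ones. The gap from the edge of a member to the next combined peak had a median of 1303 bp (quartiles 500.5 and 4797), against 4317 bp (1355.75 and 11350) for narrower peaks. A neighbour within 1000 bp was present for 137 of 315 members (43.5%, 37.9 to 49.2) and for 19.0% (17.9 to 20.2) of narrower peaks, and neighbours on both sides within that distance for 8.57% and 2.04%. Unlike presence in both replicates, this contrast had the same direction in every rank class as over all peaks. It was 56.6% against 10.6% in ranks 1 to 100, and in the later classes 36.7% to 45.6% of broad against 15.1% to 20.2% of narrower peaks. Among members the share was higher at greater width, from 35.6% at 800 to 999 bp to 61.8% at 2000 bp or more. No gap in the combined list was shorter than 200 bp, and the members nearest to that limit were X 5479812–5480777 with 201 bp, V 723851–727727 and IV 3652435–3654002 with 205 bp each, III 8795392–8796193 with 208 bp and II 14249985–14250866 with 214 bp.

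**Figure D4:**
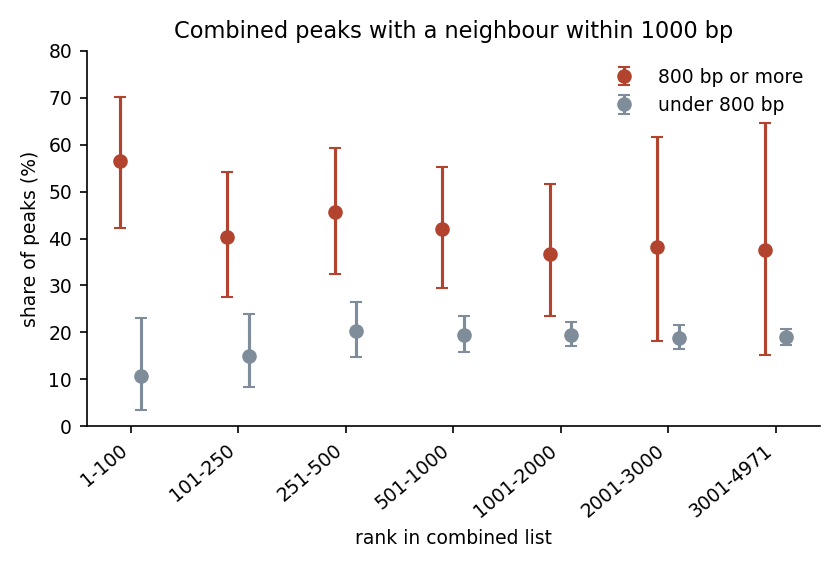
Share of combined peaks (y axis, %) with another combined peak within 1000 bp, edge to edge, by rank (x axis); red points are peaks of 800 bp or more, grey points narrower peaks, and bars are 95% Clopper-Pearson intervals. Broad peaks lie higher in all 7 rank classes, with 56.6% against 10.6% in the first.

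The near neighbours were themselves wider than most peaks. For the 137 members with a neighbour within 1000 bp, the nearest one had a median width of 546 bp and a median rank of 1460, and 40 (29.2%) were broad. For the 885 narrower peaks with such a neighbour the values were 357 bp, 2422 and 11.5%. Linked over gaps of up to 1000 bp, these 137 members fell into 109 runs of 2 or more peaks, of which 27 held at least 2 broad peaks and 37 at least 3 peaks of any width. The longest run was the block on X with its neighbour, 17851 bp. The run with the most broad peaks, at V 6220798–6230997, held 8 peaks in 10200 bp, 3 of them broad, at ranks 64, 129 and 201; it was picked out after its values were seen. All 3 were single peaks in each replicate.

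Broad peaks were spread more evenly over the chromosomes than narrower ones. Each of the 6 chromosomes carried between 46 and 61 of them. Their density, over a span taken as the largest peak end in any list, was 3.45 per Mb on I, 3.34 on II, 3.34 on III, 3.03 on IV, 2.49 on V and 3.44 on X. The density of narrower peaks ranged more widely, from 71.6 per Mb on III to 22.2 on X. Broad peaks therefore made up 13.4% (10.4 to 16.9) of all peaks on X and 5.62% (4.97 to 6.34) of those on the autosomes, with 4.46% on III the lowest.

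**Figure D5:**
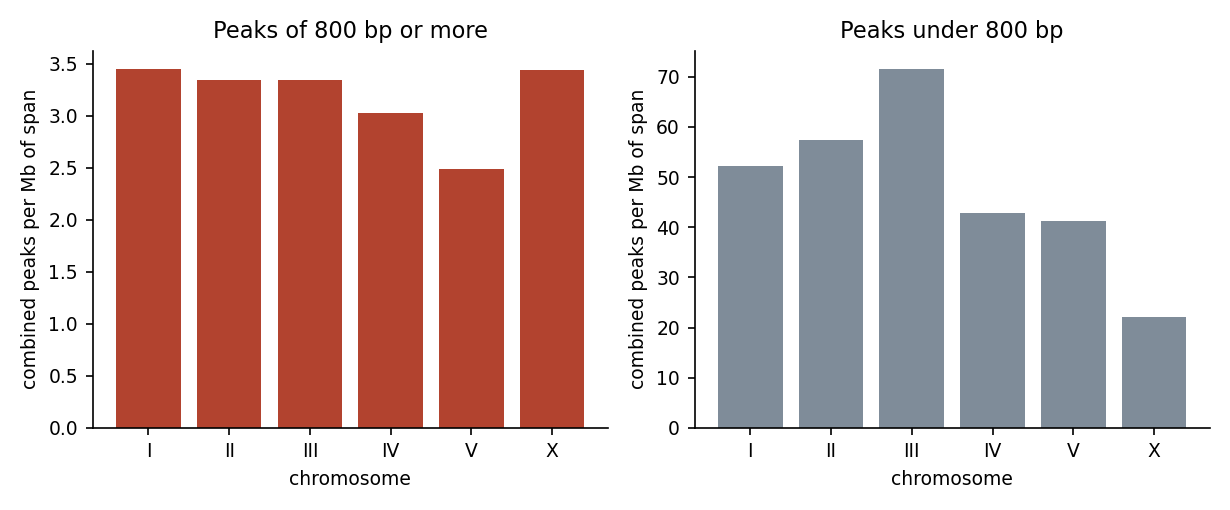
Combined peaks per Mb of chromosome span (y axes, starting at 0, on different scales) on each chromosome (x axes), for peaks of 800 bp or more (left) and narrower peaks (right). Broad peaks range from 2.49 per Mb on V to 3.45 on I, and X, with 3.44, is lowest only among the narrower peaks.

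The 61 broad peaks on X were a mixed group. They included the top-ranked block and 10 of the first 100 ranks, but their median rank was 894, against 396.5 for the 254 on autosomes, and 13 (21.3%) ranked beyond 2000, against 9.45%. Of those on X, 26 (42.6%) were in both replicates and 17 (27.9%) in neither; on the autosomes 69.3% were in both and 11.0% in neither. Narrower peaks had the same order, with 16.3% on X and 23.3% on the autosomes in both and 62.8% and 53.2% in neither. In ranks 1 to 100 all broad peaks were in both replicates, on X and on the autosomes alike. Ranks 101 to 250 had 8 of 8 on X and 48 of 49 on the autosomes, and ranks 251 to 500 had 5 of 7 and 47 of 50. It was 2 of 8 and 31 of 54 in ranks 501 to 1000, and 1 of 15 and 6 of 34 in ranks 1001 to 2000. The numbers on X are small. Only 2 on X (3.28%) were divided, at ranks 6 and 50, against 41 (16.1%) on the autosomes. Members in both replicates, the set used for division by rank above, numbered 26 on X and 176 on the autosomes, and rank was not separated here. Close neighbours were also rarer, with 24.6% of broad peaks on X and 48.0% on the autosomes having 1 within 1000 bp, and the same order held for narrower peaks, at 7.63% and 20.1%. Among the autosomes, the share of broad peaks in both replicates ran from 55.8% on I to 81.1% on IV. By position, 93 of all broad peaks lay in the left, 116 in the middle and 106 in the right of 3 equal parts of their chromosome. II had 6, 25 and 20, and III had 19, 10 and 17. Narrower peaks were not counted by these parts, so whether the broad peaks differ from them in position is not known.

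The replicate lists have wide peaks of their own. In replicate 1, 75 peaks (4.39%) measured 800 bp or more, and 71 of them overlapped a broad combined peak. In replicate 2 it was 168 (7.97%), of which 144 overlapped a broad combined peak and 22 only narrower ones. Wide replicate peaks also ranked well, with medians of 128 and 244, against 886.5 and 1120 for the rest of each list. X held 21.3% of the wide peaks of replicate 1 and 5.88% of its others, and 16.7% and 7.52% in replicate 2.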

How the data were processed

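ChIP-seq peak lists of 2 ChIP replicates and a combined list were used. Per the file headers, coordinates are on WormBase WS180, and per the deposited files peaks were called with PeakSeq and carry a q-value each. How reads were aligned, which q-value was required, whether the input was subtracted and how the combined list was built is not stated in the labels or files. The largest deposited q-value is 0.000305 in the combined list, 0.000205 in replicate 1 and 0.000173 in replicate 2. No read counts were given, so depth is unknown and q-values served only for ranks within a list (ties share the lower rank).

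Members were combined peaks of 800 bp or more. Replicate peaks overlapping by at least 1 bp were counted, the covered bases were divided by the width, and gaps were measured between edges. Piece counts and coverage were the same as those of bedtools 2.31.1 for all 4971 peaks, and the procedures were tested on simulated intervals. Named peaks were the 10 best-ranked and 10 widest members, up to 5 in neither replicate, 5 with the most replicate peaks, 5 with the smallest gaps, and those within 5 bp of the limit. The rule, members and alternatives were chosen with earlier results of these data known. Alternatives were other widths, overlap rules, distances and list thresholds, joining of near peaks, and leaving out a replicate, the widest peaks or X. The software was Python 3.11.15 with scipy 1.17.1, numpy 2.4.6 and pandas 2.3.3; figures were drawn with matplotlib 3.10.9.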

Additional observations from a re-analysis of the deposited data

How the results depend on the processing

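Leaving out X was added after the data were seen. The share of broad peaks in both replicates, 64.1%, was 57.7% with a limit of 600 bp, 69.8% with 1000 bp, 70.4% in the better-ranked 50% of the combined list and 51.4% with the better-ranked 50% of each replicate list; in 1 replicate alone it was 82.9% without replicate 1 and 67.0% without replicate 2. The share divided, 13.7%, was 6.35% with 600 bp, 22.5% with 1000 bp, 21.7% with peaks within 500 bp joined, 6.35% with the better-ranked 50% of each replicate list, 9.52% without replicate 1 and 8.89% without replicate 2. The median coverage, 79.8%, was 58.4% with peaks joined, 69.4% with the better-ranked 50% of each replicate list, 72.0% without replicate 1 and 45.3% without replicate 2. The share with a neighbour within 1000 bp, 43.5%, was 34.5% with 600 bp, 50.3% with 1000 bp, 31.0% in the better-ranked 50% of the combined list, 27.1% with peaks joined, 25.1% for 500 bp and 58.1% for 2000 bp. The median rank, 437, was 723 with 600 bp, 275 with 1000 bp and 724 with peaks joined. There were 693 broad peaks with 600 bp and 169 with 1000 bp, and 7 shared breaks in place of 14 with the better-ranked 50% of each replicate list. A stricter list, a lone replicate or a joining step has fewer or longer intervals by construction; the cause was otherwise not tested. In all, 27 alternative values moved beyond their interval or beyond 1.5 times the count. The other 22, the 67.0% above among them, stayed within. Leaving out X or the 2 widest peaks moved none of the 5 values computed beyond its interval. No paired analysis was possible because the only groups with common replicate numbers are ChIP and input, input values were not analysed here, and the results come from no test. Depth limits these results to an unknown extent.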

Other observations

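Of the wide replicate peaks, 1 in replicate 1 and 2 in replicate 2 overlapped no combined peak. Both replicates listed the same region at the far right of I, 15064008–15067642 in replicate 1 and 15064009–15067638 in replicate 2. It measured 3635 and 3630 bp, ranked 1 in each replicate, and was longer than all but 4 of the broad combined peaks. Why the combined list lacks this region is not stated, and input values there were not analysed, so it is not shown to be a site of DVE-1 binding. The other wide peak without a combined one was V 5284007–5285293 in replicate 2, 1287 bp wide at rank 1776. In the opposite sense, 3 wide peaks of replicate 1 and 7 of replicate 2 each spanned 2 combined peaks. The widest of these was IV 14619648–14623748 in replicate 2, 4101 bp long and ranked 58, which joined the broad combined peaks at ranks 104 and 607.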
